A study of Mus musculus with 6 samples.

Results

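The 10 genes described here encode the transcription factor NRF2 (Nfe2l2), its inhibitor KEAP1 (Keap1) and enzymes that remove reactive oxygen species or reduce oxidised molecules (Nqo1, Txnrd1, Srxn1, Txn1, Prdx1, Sod1, Sod2 and Cat). They were chosen by name, and all 10 were found among the 17680 gene symbols counted in each library. RNA was sequenced in bulk from whole kidney of wild-type C57BL/6 mice aged 6 to 8 weeks. The LPS group held 3 mice whose kidneys were taken 24 h after lipopolysaccharide, a component of the bacterial outer membrane, was injected into the peritoneum to model septic kidney injury. The Control group held 3 mice given phosphate-buffered saline (PBS) by the same route. The dose of LPS is not given in the sources used here, and both groups carried the same genotype. Per the series' design text, the series set injured kidneys beside uninjured ones.

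NRF2 is bound by KEAP1, which hands it to a cullin-3 ubiquitin ligase for degradation. Oxidants and electrophiles modify cysteines of KEAP1, so NRF2 escapes, pairs with a small Maf protein and binds antioxidant response elements of its target genes. Its activity is therefore set mainly by the stability of the protein, which RNA counts do not measure. The enzymes act in relay: superoxide dismutases turn superoxide into hydrogen peroxide, catalase and peroxiredoxins remove the peroxide, thioredoxin reduces the peroxiredoxins, and thioredoxin reductase recharges thioredoxin with electrons from NADPH. The proximal tubule, rich in mitochondria and peroxisomes, is a main site of this chemistry in kidney.

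Promoter sequence was examined for the antioxidant response element core, TGACNNNGC, for the form bound by NRF2 with small Maf proteins, TGANTCAGC, and for the AP-1 element TGANTCA. Both strands of a window of 300 bases, from 250 bases before the annotated start to 50 after it, were read from RefSeq on assembly GRCm38.p6. All 10 genes matched, with 12 windows, since Txnrd1 has 3 starts. TGANTCA is contained in TGANTCAGC, and a sequence can match both of the longer motifs. The core was found in 5 of the 12 windows (Nfe2l2, Prdx1, Sod1, Srxn1 and 1 of Txnrd1) and in 12.4% of all 32851 promoter windows. TGANTCAGC was found in 2 of the 12 (Prdx1 and Srxn1) and in 1.19% of all windows, and TGANTCA in the same 2 and in 7.81% of all. A match describes the letters of the window and is no evidence of binding, and the counts do not separate the starts of Txnrd1.

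The 250 bases before the annotated start, 5′ to 3′ on the strand of the gene, with matches in capitals, are given for Srxn1 and Prdx1 because they hold TGANTCAGC, Txnrd1 (its second listed start) and Sod1 because they hold only the core and moved in opposite directions, and Nqo1 because it was about 2-fold higher with no match in this window.
Srxn1, chr2:152105274-152105523, plus strand: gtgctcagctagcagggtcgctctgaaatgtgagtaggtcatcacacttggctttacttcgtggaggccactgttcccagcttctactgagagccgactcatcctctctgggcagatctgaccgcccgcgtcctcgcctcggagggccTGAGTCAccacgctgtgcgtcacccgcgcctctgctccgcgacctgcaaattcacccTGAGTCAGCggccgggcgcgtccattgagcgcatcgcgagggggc
Prdx1, chr4:116685349-116685598, plus strand: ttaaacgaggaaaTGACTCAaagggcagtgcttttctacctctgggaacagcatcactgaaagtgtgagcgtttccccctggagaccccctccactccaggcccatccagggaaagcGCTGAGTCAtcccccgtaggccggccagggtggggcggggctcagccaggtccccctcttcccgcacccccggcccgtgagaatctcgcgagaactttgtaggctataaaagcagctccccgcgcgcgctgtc
Txnrd1, chr10:82858956-82859205, plus strand: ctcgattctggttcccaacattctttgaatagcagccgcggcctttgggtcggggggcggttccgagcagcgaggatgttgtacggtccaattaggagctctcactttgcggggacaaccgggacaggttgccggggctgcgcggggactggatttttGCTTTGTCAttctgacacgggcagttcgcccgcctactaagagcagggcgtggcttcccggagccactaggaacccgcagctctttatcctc
Sod1, chr16:90220512-90220761, plus strand: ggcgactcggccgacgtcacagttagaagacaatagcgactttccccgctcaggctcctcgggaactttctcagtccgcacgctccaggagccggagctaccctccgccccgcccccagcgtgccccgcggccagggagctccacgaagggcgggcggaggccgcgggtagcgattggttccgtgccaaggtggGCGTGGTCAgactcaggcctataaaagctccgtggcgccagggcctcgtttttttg
Nqo1, chr8:107403206-107403455, minus strand: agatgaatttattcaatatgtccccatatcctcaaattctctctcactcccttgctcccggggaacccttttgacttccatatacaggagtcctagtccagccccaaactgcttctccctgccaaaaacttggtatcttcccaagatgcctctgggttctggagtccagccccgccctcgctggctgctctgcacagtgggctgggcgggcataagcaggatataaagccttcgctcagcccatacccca
Counted from the annotated start, negative upstream, TGANTCAGC lay at -45 to -37 in Srxn1, as tgagtcagc, and on the other strand at -133 to -125 in Prdx1, as gctgagtca. The core match of Srxn1 lay on the other strand at 28 to 36, after its start and not shown. The core lay on the other strand at -92 to -84 in Txnrd1 and at -56 to -48 in Sod1. Like Nqo1, Txn1 was about 2-fold higher with no match in its window. Nfe2l2 also held only the core, at -240 to -232. The sequences of Txn1 and Nfe2l2 are not shown.

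Most of the 10 genes were higher in LPS kidneys, but they did not all move one way. Of the 10, 6 rose (Srxn1, Txnrd1, Nqo1, Txn1, Nfe2l2 and Prdx1), 2 fell (Sod1 and Cat) and 2 did not pass the test (Keap1 and Sod2). All 10 passed the filter on low counts and entered the fit over 14219 genes, an edgeR quasi-likelihood test of LPS against Control with Benjamini-Hochberg adjustment over all of them and 0.05 as the threshold. Of all genes tested, 50.5% passed, 25.7% as higher and 24.8% as lower in LPS. The test passed with an estimated increase of at least 2-fold for 4 of the 10 members and for 8.24% of all genes. This cut was on the estimate, as the test was against no change. Nqo1 and Txn1 lay close to the cut and fell below it without LPS replicate 3, at log2 fold changes of 0.97 and 0.93. The members' median log2 fold change was 0.39, against 0.008 over all genes. The members as a list were given no test. The groups did not overlap in 9 of the 10 members, Sod2 being the exception, and in 60.2% of all genes. In bulk kidney, fewer cells of a type and less RNA per cell cannot be told apart.

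**Figure D1:**
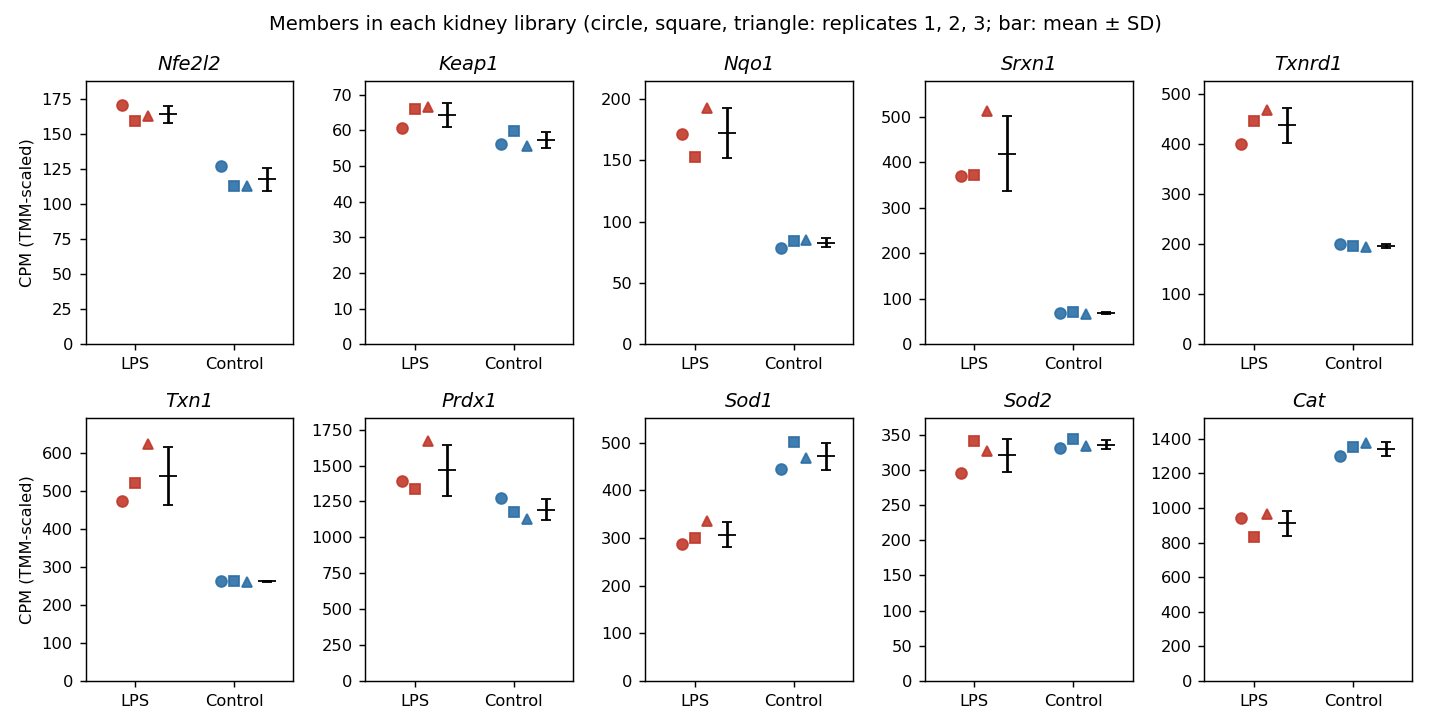
Expression of each of the 10 genes in CPM (counts per library size, adjusted by TMM factors; vertical axes start at 0) in the LPS and Control libraries, with replicates 1, 2 and 3 as circle, square and triangle and the mean ± SD (n = 3) beside them. The libraries of both groups overlap only for Sod2, and the largest fold is that of Srxn1, at 370.3 to 514 CPM in LPS against 67.4 to 71.8 CPM in Control kidneys.

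The libraries held 31313181 to 33454344 counts in LPS and 29097558 to 31071170 counts in Control kidneys. Counts of a member in 1 library lay between 1680 (Keap1) and 51540 (Prdx1). LPS replicate 2 stood apart in transcripts of seminal vesicle, whose 8 listed markers took 3.65% of its counts, against at most 0.00456% elsewhere. Without this library the same 6 members rose and the same 2 fell, with log2 fold changes of 2.67 for Srxn1, 1.15 for Txnrd1, 1.14 for Nqo1, 1.07 for Txn1, 0.51 for Nfe2l2, 0.36 for Prdx1, -0.60 for Sod1 and -0.49 for Cat. Kidney markers were abundant in both groups, and Umod (uromodulin, of the loop of Henle) averaged 4346 ± 119 CPM in the LPS group and 4477 ± 231 CPM in the Control group. All 8 proximal tubule markers fell, to a summed 1675 to 1760 CPM in LPS against 12035.2 to 13619.9 CPM in Control kidneys. All 7 tested neutrophil markers rose, the 8 listed markers summing to 75.8 to 116 CPM in LPS against 2.89 to 3.78 CPM in Control kidneys. The 8 monocyte and macrophage markers, of which 3 rose and 3 fell, summed to 175 to 199 CPM in LPS kidneys and to 129 to 205 CPM in Control kidneys. All 5 red cell markers fell, to 53.2 to 124.8 CPM in LPS against 246 to 320.2 CPM in Control kidneys. No marker of these lists was at 0 counts in a group.

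Nfe2l2, which encodes NRF2, had 171, 159 and 163 CPM in LPS replicates 1, 2 and 3, against 127, 113 and 113 CPM in Control replicates 1, 2 and 3. Every LPS library lay above every Control library. This gave a log2 fold change of 0.48 ± 0.08 (SE), a 1.40-fold increase (edgeR adjusted p = 0.00121), from means of 164 ± 6.04 CPM in the LPS group and 118 ± 8.05 CPM in the Control group (SD, n = 3 each). Keap1, the substrate adaptor that inhibits NRF2, had 60.6, 66.0 and 66.7 CPM in LPS against 56.2, 59.9 and 55.8 CPM in Control libraries. Its groups were separated only narrowly, by LPS replicate 1 and Control replicate 2. The log2 fold change of Keap1 was 0.17 ± 0.07, with a 95% interval of 0.007 to 0.33, and it did not pass (edgeR adjusted p = 0.0770). Without LPS replicate 1 it did, at 0.22 and an adjusted p of 0.0385 (edgeR), in a range of adjusted p from 0.0385 to 0.215 over 17 alternatives. The FPKM of Nfe2l2 was 5.05, 4.32 and 4.37 times that of Keap1 in the LPS libraries and 4.05, 3.38 and 3.63 times in the Control libraries.

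Nqo1, the quinone reductase that is a classical readout of NRF2, had 172, 153 and 193 CPM in LPS against 78.9, 84.6 and 85.2 CPM in Control libraries. The lowest LPS library was far above the highest Control library. Nqo1 rose by a log2 fold change of 1.06 ± 0.10, a 2.08-fold increase (edgeR adjusted p = 3.53e-05).

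Among genes of the thioredoxin system, both the carrier and its reductase were about 2-fold higher. Txn1, the cytosolic thioredoxin, had 474, 521 and 623 CPM in LPS against 263, 263 and 261 CPM in Control libraries. Txnrd1, the cytosolic selenoenzyme that reduces it, had 400.0, 446 and 469 CPM in LPS against 201, 196 and 194 CPM in Control libraries. In both genes the Control libraries were close together, the LPS libraries were spread more widely, and replicate 3 was the highest LPS library. The log2 fold change was 1.04 ± 0.10 for Txn1 (edgeR adjusted p = 4.83e-05) and 1.15 ± 0.08 for Txnrd1 (edgeR adjusted p = 6.21e-06). An Eid3 gene annotated within the span of Txnrd1 was counted separately. With no strand setting given, reads where the 2 overlap cannot be told apart.

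Srxn1, sulfiredoxin, which reactivates peroxiredoxins whose cysteine has been overoxidised, changed most of the 10. It had 370.3, 373 and 514 CPM in LPS against 68.9, 71.8 and 67.4 CPM in Control libraries. LPS replicate 3 was the highest, and no LPS library was near the narrow Control range. Srxn1 rose by a log2 fold change of 2.59 ± 0.13, a 6.04-fold increase (edgeR adjusted p = 1.04e-06), and 2.36% of all tested genes had a higher log2 fold change. Prdx1, the cytosolic peroxiredoxin that sulfiredoxin repairs, had 1389.5, 1339 and 1669.7 CPM in LPS against 1272, 1173 and 1130.1 CPM in Control libraries. Its lowest LPS library was close to its highest Control library. The log2 fold change of Prdx1 was 0.30 ± 0.10, with a 95% interval of 0.07 to 0.53 (edgeR adjusted p = 0.0334). That call was lost without LPS replicate 3 (0.20, adjusted p = 0.0969), without Control replicate 2 (0.29, adjusted p = 0.0966) and without Control replicate 3 (0.26, adjusted p = 0.114, all edgeR). It was also lost in limma on log2(FPKM + 1), at an adjusted p of 0.121, and over 17 alternatives the adjusted p ran from 0.0126 to 0.121. RefSeq annotates a pseudogene copy of Prdx1, Prdx1-ps, so reads can be split between the gene and its copy. It also annotates a non-coding gene that overlaps Prdx1, which is not among the counted gene symbols.

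**Figure D2:**
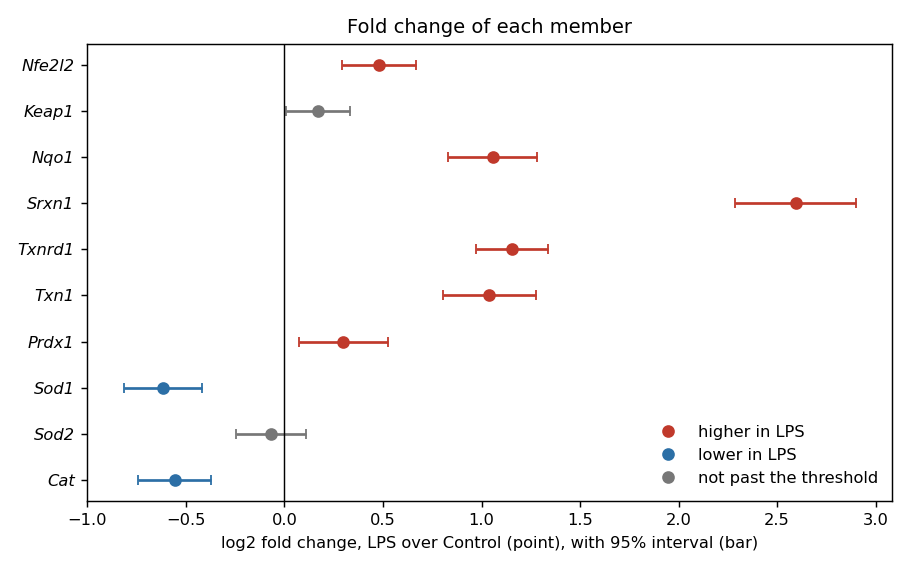
Log2 fold change of each gene, LPS over Control (point), with its 95% interval (bar), coloured by the call of the edgeR test. Srxn1 stands alone at 2.59, Txnrd1, Nqo1 and Txn1 lie together at 1.04 to 1.15, and Sod1 and Cat lie at -0.62 and -0.56.

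Sod1 and Cat were lower in LPS kidneys, and Sod2 did not pass. Sod1, the copper-zinc superoxide dismutase of the cytosol, had 287, 300.1 and 336 CPM in LPS against 446, 501 and 469 CPM in Control libraries. Each LPS library lay below each Control library. Sod1 had a log2 fold change of -0.62 ± 0.09, a change of -34.8% (edgeR adjusted p = 0.000389). Cat, the haem enzyme of peroxisomes that splits hydrogen peroxide, had 939.9, 830.5 and 966 CPM in LPS against 1299, 1352 and 1376 CPM in Control libraries. Here too the groups were apart, LPS replicate 2 being the lowest. Its log2 fold change was -0.56 ± 0.08, a change of -32.1% (edgeR adjusted p = 0.000515). Proximal tubule markers (summed 1675 to 1760 CPM in LPS against 12035.2 to 13619.9 CPM in Control kidneys) and red cell markers (53.2 to 124.8 CPM against 246 to 320.2 CPM) were lower in the same libraries, and their part in the results for Sod1 and Cat was not tested.

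Sod2, the manganese enzyme of the mitochondrial matrix and in many cell types a target of NF-kB, had 295, 340.2 and 326 CPM in LPS against 330.3, 343 and 334 CPM in Control libraries. Its groups overlapped, with LPS replicate 2 inside the Control range. The log2 fold change was -0.07 ± 0.08, with a 95% interval of -0.24 to 0.11 (edgeR adjusted p = 0.501), and it did not pass under any of the 17 alternatives (adjusted p from 0.324 to 0.941).

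Levels per length, the deposited FPKM values, put the members in a different order in LPS and in Control kidneys. In LPS kidneys the order of mean FPKM was Prdx1 (1030.0), Txn1 (511), Sod1 (481), Cat (356), Srxn1 (122), Txnrd1 (109), Sod2 (83.4), Nqo1 (78.5), Nfe2l2 (65.6) and Keap1 (14.4). In Control kidneys it was Prdx1 (845), Sod1 (742), Cat (528), Txn1 (251), Sod2 (88.1), Txnrd1 (49.2), Nfe2l2 (47.3), Nqo1 (38.0), Srxn1 (20.4) and Keap1 (12.9). Txn1 thus stood next to Sod1 in LPS kidneys, the ranges of the 2 overlapping, and below Sod1 and Cat in Control kidneys. Srxn1 was above Sod2 in LPS kidneys and ninth in Control kidneys. Neighbours whose ranges overlapped were Txn1 and Sod1, Srxn1 and Txnrd1, and Sod2 and Nqo1 in LPS kidneys, and Txnrd1 and Nfe2l2 in Control kidneys. Prdx1 exceeded 99.8% of all genes in mean FPKM in LPS and 99.7% in Control kidneys.

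**Figure D3:**
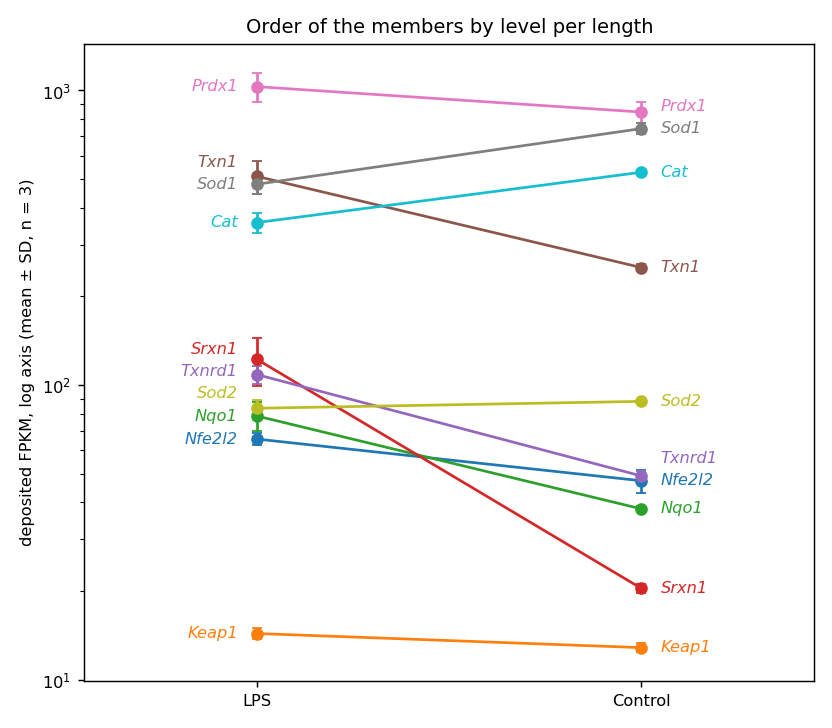
Mean deposited FPKM (log axis, ± SD, n = 3) of each gene in LPS and Control kidneys, joined by a line. Prdx1 is at the top and Keap1 at the bottom of both groups, while the line of Srxn1 crosses those of Nqo1, Nfe2l2, Txnrd1 and Sod2.

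Ratios of FPKM within a library do not depend on how libraries are scaled. They were compared for 5 pairs by two-sided exact permutation tests over the 6 libraries, which cannot give a p under 0.1 with 3 against 3, adjusted over the 5. The Srxn1 to Prdx1 ratio, of the repair enzyme to its substrate, was 0.111, 0.116 and 0.128 in LPS against 0.0225, 0.0254 and 0.0248 in Control libraries. Its log2 difference was 2.28, with no overlap (exact p = 0.1, adjusted 0.167). The Sod2 to Sod1 ratio was 0.171, 0.189 and 0.162 in LPS against 0.124, 0.114 and 0.119 in Control libraries. The groups were again apart, with a log2 difference of 0.55 (exact p = 0.1, adjusted 0.167). The Nfe2l2 to Keap1 ratio differed by 0.31 on the log2 scale, also without overlap (exact p = 0.1, adjusted 0.167). The Txnrd1 to Txn1 ratio was 0.214 ± 0.0147 in LPS and 0.196 ± 0.00320 in Control libraries (SD, n = 3), and its groups overlapped (log2 difference 0.12, exact p = 0.2, adjusted 0.25). The Cat to Sod1 ratio was 0.743 ± 0.0674 in LPS and 0.712 ± 0.0326 in Control libraries, with overlap (log2 difference 0.06, exact p = 0.6), and without LPS replicate 1 the difference was -0.01. None of the 5 could pass the threshold in this design.

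**Figure D4:**
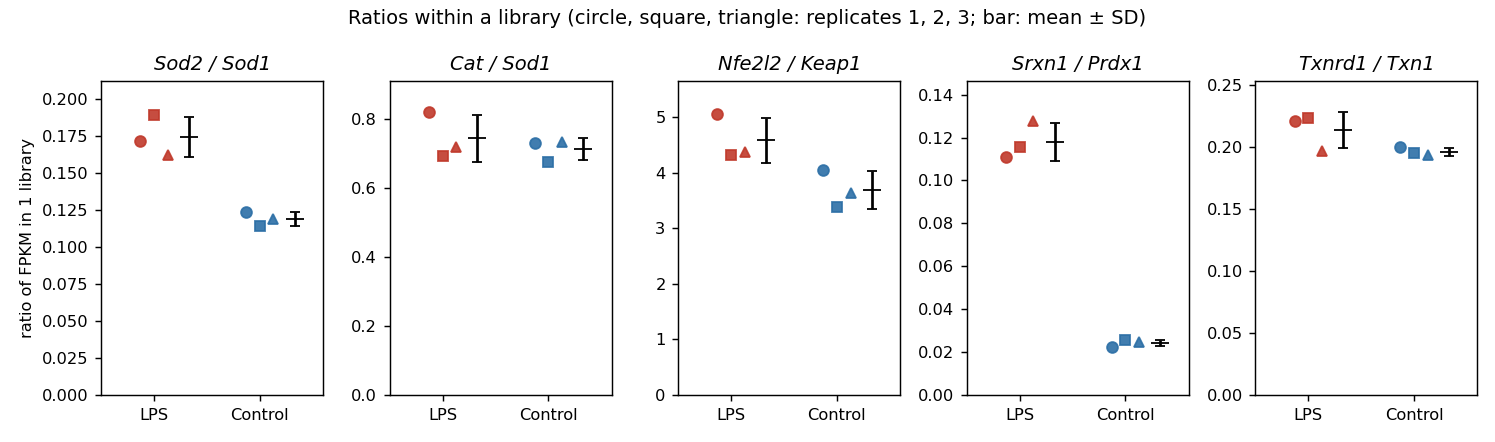
Ratio of FPKM of 2 genes in each library (axes start at 0), LPS beside Control, with replicates 1, 2 and 3 as circle, square and triangle and the mean ± SD (n = 3). The Srxn1 to Prdx1 ratio averages 0.118 in LPS against 0.0242 in Control libraries, while the Cat to Sod1 and Txnrd1 to Txn1 ratios overlap.

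Partners and regulators of NRF2 moved in both directions. Of 18 tested, 8 rose and 3 fell, with a median log2 fold change of 0.20, beside 25.7% of all genes higher and 24.8% lower. Maff, a small Maf partner, rose by a log2 fold change of 2.80 ± 0.19, to 22.5 ± 2.31 CPM in LPS against 3.24 ± 0.885 CPM in Control kidneys (edgeR adjusted p = 5.51e-06). Its relatives stood at 0.36 (Mafk, which passed) and 0.13 (Mafg, which did not). Sqstm1, the p62 autophagy receptor that can sequester KEAP1, rose to 1032 ± 102 CPM in LPS against 597 ± 27.7 CPM in Control kidneys (log2 fold change 0.79 ± 0.09). Dpp3, a peptidase that binds KEAP1, rose by 0.68 ± 0.07 and Syvn1, a ubiquitin ligase of the endoplasmic reticulum for which NRF2 is a substrate, by 0.59 ± 0.11. The repressor Bach2, better known from lymphocytes, fell by -1.74 ± 0.30, Btrc, an adaptor of a second ligase for NRF2, by -0.49 ± 0.09, and Cul3, the cullin that works with KEAP1, by -0.33 ± 0.09. Sesn2 did not pass (-0.15), nor did Bach1, the repressor that competes with NRF2 (0.21, edgeR adjusted p = 0.146).

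Other genes known as NRF2 targets were more often higher than lower. Of 34 tested, 20 rose, 12 of them at least 2-fold, and 7 fell, with a median log2 fold change of 0.51, where 25.7% of all genes were higher, 8.24% at least 2-fold, and 24.8% lower. Hmox1, haem oxygenase, rose to 387 ± 69.9 CPM in LPS against 31.6 ± 3.19 CPM in Control kidneys, a log2 fold change of 3.62 ± 0.15 (edgeR adjusted p = 3.30e-07). Fth1, the ferritin heavy chain, rose to 14604.8 ± 529 CPM in LPS against 4677 ± 445 CPM in Control kidneys (1.64 ± 0.08). Pgd and G6pdx, dehydrogenases of the pentose phosphate pathway that make NADPH, rose by 1.88 ± 0.08 and 1.57 ± 0.08. Taldo1 and Tkt of the same pathway also rose, by 1.09 and 0.60. Other sources of NADPH in the list stood apart from these. Me1, the malic enzyme, fell to 352 ± 19.0 CPM in LPS against 789 ± 16.6 CPM in Control kidneys (-1.16 ± 0.08), and Idh1 did not pass (-0.04). Osgin1 fell by -0.75 ± 0.08, the epoxide hydrolase Ephx1 by -0.73 ± 0.13 and the glutathione transferase Gsta3 by -0.56 ± 0.10. The glutathione synthesis subunits Gclc (0.82 ± 0.22) and Gclm (0.41 ± 0.07) and the cystine carrier Slc7a11 (16.0-fold, at 6.21 CPM in LPS against 0.385 CPM in Control kidneys) rose. Taldo1, Tkt, Idh1, Gclc, Gclm, Slc7a11, Mafk, Mafg and Bach1 were named after their values were seen. Gsta genes and ferritin genes have close copies, so reads can be split between them.

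**Figure D5:**
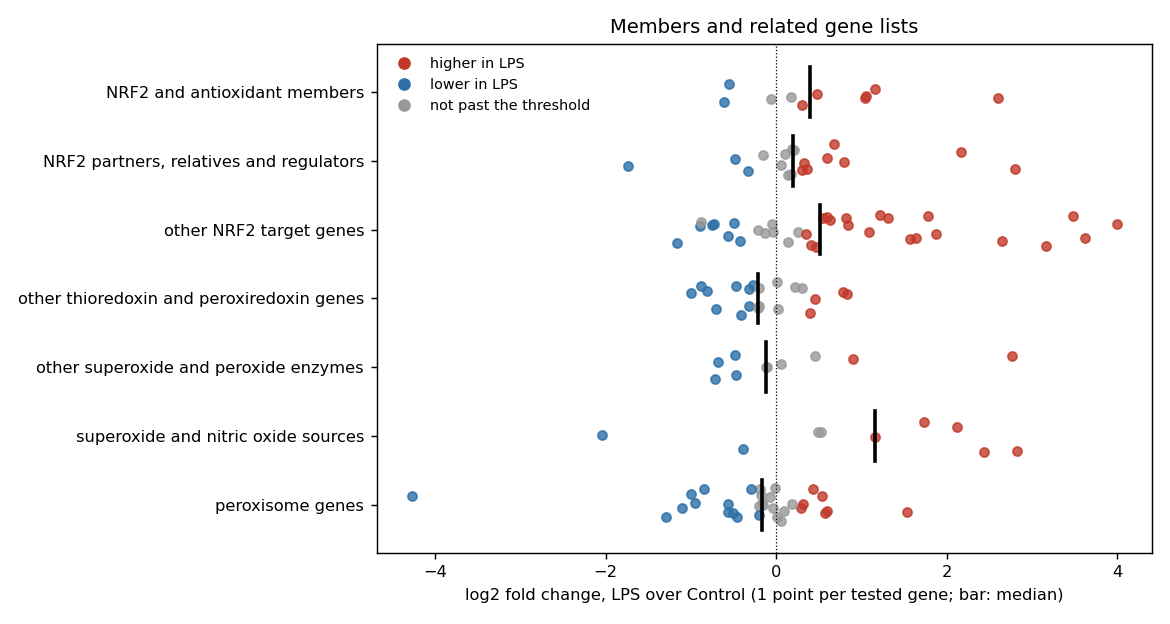
Log2 fold change, LPS over Control, of every tested gene of the NRF2 and antioxidant members and of 6 related lists (1 point per gene, coloured by call; bar, the median of the list). Medians of the other NRF2 targets and of the superoxide and nitric oxide sources lie above 0, at 0.51 and 1.15, and those of the other thioredoxin and peroxiredoxin genes and of the peroxisome genes lie below it, at -0.21 and -0.17.

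Relatives of Txn1 and Prdx1 moved in both directions. Of 20 tested thioredoxin, peroxiredoxin, glutaredoxin, methionine sulfoxide reductase and related genes, 4 rose and 9 fell (median -0.21), where 25.7% of all genes were higher and 24.8% lower. Prdx4, the peroxiredoxin of the endoplasmic reticulum, changed by -49.9%, Prdx5 fell by -0.81 ± 0.11, to 697 ± 101 CPM in LPS against 1223 ± 80.1 CPM in Control kidneys, and the reductases Msrb2 and Msra by -0.88 ± 0.12 and -0.70 ± 0.10. Prdx3 and Prdx2 also fell, by -0.42 and -0.32, and Prdx6 did not pass (0.22). The mitochondrial pair did not pass either, at -0.21 for Txn2 (edgeR adjusted p = 0.0930) and -0.20 for Txnrd2 (edgeR adjusted p = 0.0882). Those that rose were Glrx, a glutaredoxin, by 0.78 ± 0.15, Txnip, the inhibitor of thioredoxin, by 0.83 ± 0.24, Oxr1 by 0.46 ± 0.07 and Msrb1 by 0.39 ± 0.11. Prdx2, Prdx3, Prdx6, Txn2 and Txnrd2 were named after their values were seen.

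Enzymes that accompany the superoxide dismutases and catalase also moved in both directions. Of 10 tested, 2 rose and 4 fell (median -0.12), beside 25.7% higher and 24.8% lower over all genes. Sod3, the extracellular superoxide dismutase, fell to 346 ± 24.1 CPM in LPS against 569 ± 27.0 CPM in Control kidneys (-0.72 ± 0.08), and Ccs, the copper chaperone of SOD1, fell by -0.69 ± 0.11. Gpx1 and Gpx4, glutathione peroxidases of the cell, fell by -0.49 ± 0.08 and -0.48 ± 0.09, whereas Gpx3, the plasma form secreted by the proximal tubule, did not pass, with 23910.6 ± 1307 CPM in the LPS group and 23006.9 ± 2895 CPM in the Control group, and neither did Gpx7 (0.46). Ucp2, a mitochondrial carrier, rose by 2.76 ± 0.13 and Pon2, a lactonase, by 0.90 ± 0.12. Proximal tubule markers were lower in the same libraries, as given above, and their part in these results was not tested.

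Genes that make superoxide or nitric oxide moved in both directions. Of 12 listed, 9 were tested, 5 rose and 2 fell, beside 25.7% of all genes higher and 24.8% lower. Xdh, xanthine dehydrogenase, rose to 188 ± 9.84 CPM in LPS against 26.7 ± 5.42 CPM in Control kidneys (2.82 ± 0.14), and Nos2, the inducible nitric oxide synthase, rose by 2.43 ± 0.32. Ncf1 and Ncf4, cytosolic subunits of the phagocyte oxidase, rose by 2.11 ± 0.23 and 1.73 ± 0.33, while its catalytic subunit Cybb did not pass (0.48, edgeR adjusted p = 0.126). Nox4, the oxidase of renal tubules, fell to 101 ± 9.97 CPM in LPS against 414 ± 64.4 CPM in Control kidneys (-2.04 ± 0.13), and Cyba, its membrane partner, fell by -0.40 ± 0.09. The neutrophil markers were higher in the LPS libraries, at a summed 75.8 to 116 CPM against 2.89 to 3.78 CPM in Control libraries, and their part in the changes of Ncf1 and Ncf4 was not tested. Cybb was named after its value was seen.

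Peroxisome genes, the company of Cat, were split. Of 31 tested (of 32 listed names, of which Pmp34 is an older name of Slc25a17, also listed), 7 rose and 12 fell, with a median log2 fold change of -0.17, against 25.7% higher and 24.8% lower over all genes. Proximal tubule markers summed to 1675 to 1760 CPM in LPS against 12035.2 to 13619.9 CPM in Control kidneys, and their part in these results was not tested. The oxidases Hao2 and Pipox, which release hydrogen peroxide, fell by -4.27 ± 0.19 and -1.30 ± 0.09, Acox2 by -1.10 ± 0.09 and the lipid carrier Scp2 by -0.85 ± 0.09. Hao2 stood at 18.5 ± 1.86 CPM in LPS against 358 ± 88.6 CPM in Control kidneys. Pex11a, which promotes division of peroxisomes, rose by 1.53 ± 0.11, and the import and assembly factors Pex14 and Pex16 rose by 0.57 ± 0.09 and 0.54 ± 0.09. Pex5, the receptor that imports catalase, did not pass (-0.07) and was named after its value was seen.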

How the data were processed

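Kidney RNA of 3 LPS and 3 Control mice was compared, with groups taken from the sample titles. For every library the authors deposited raw counts and FPKM values by gene symbol. Tools listed without roles, per the submitters' processing notes, are HISAT2, HTSeq, SAMtools, DESeq2 and R 3.2.0. Genome build, annotation and strand setting: not given in the sources used here. Total RNA was extracted with TRIzol, per the labels' protocols. The deposited FPKM equalled count over (integer gene length times library total) in 106077 of 106080 values, within a relative tolerance of 1e-06.

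The test of the counts was run in edgeR 4.0.16 under R 4.3.3 (filterByExpr, minimum count 10, minimum total 15, TMM factors, quasi-likelihood test, two-sided), and p-values were adjusted by Benjamini-Hochberg over 14219 genes. The SE is the log2 fold change over the square root of F. CPM are counts divided by the TMM-scaled library size. The procedure was tested on simulated counts in which 200 genes were changed, far fewer than were called in the real comparison. It recovered 38.1% of 1.5-fold, 80% of 2-fold and 98.5% of 4-fold changes. Of its 153 calls, 12 were on unchanged genes. The 10 members and the related lists were chosen with earlier results of these data known. The text names all members and, of each related list, the 4 genes with the smallest p in each direction, except for a peroxisome gene that is not reported here. Replicates are separate mice, per the series' design text, and all pairs within a group differed by more than sampling noise (chi-square of at least 11.1 per degree of freedom). Precision from depth was not limiting for the members, which had at least 1680 counts in every library. Alternatives were RLE factors, library sizes, no low-count filter or one at mean CPM 1, DESeq2 1.42.0, limma 3.58.1 (voom, or log2(FPKM + 1) and log2(FPKM + 0.1)), a filter at mean FPKM 1, replicate numbers as a block, seminal vesicle genes left out, and each library left out in turn.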

Additional observations from a re-analysis of the deposited data

How the results depend on the processing

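Of the 10 members, 8 kept their call under all 17 alternatives (Nfe2l2, Nqo1, Txnrd1, Srxn1, Txn1, Sod1, Sod2 and Cat). Keap1 passed in 1 and Prdx1 was lost in 6, and no member changed direction. Higher calls numbered 5 to 7 of the 10 and lower calls 2 in each. Over all genes, higher calls ran from 3077 to 3724 and lower calls from 3010 to 3589. The log2 difference of the Cat to Sod1 ratio, 0.06, ran from -0.0134 (without LPS replicate 1) to 0.109 when single libraries were left out, so its sign rests on LPS replicate 1. Same-numbered libraries did not deviate together (correlations of 0.0478, -0.0535 and -0.00201), so numbers were not taken as pairs. With the replicate number as a block, 3414 genes were higher and 3331 lower, with 5 higher and 2 lower members, and Prdx1 had an adjusted p of 0.0936 (edgeR). The cause was not tested. In the ratios, the block gave the same log2 differences, 2.28, 0.55, 0.31, 0.12 and 0.06.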
